A study of Rattus norvegicus with 4 samples.

Results

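The genes described here are solute carriers, the membrane proteins that move ions, sugars, amino acids and monocarboxylates into and out of cells. They were all genes on the array named as carriers of the Slc1, Slc2, Slc4, Slc6, Slc7, Slc9, Slc12, Slc16 or Slc38 families, apart from Slc1a2, Slc1a3, Slc4a4 and Slc6a3. The rule went by name, but the members were chosen with earlier results of these data known. This gave 88 genes read by 122 probes, among 14871 named genes and 43628 features on each array. All 88 were used, since the deposited ratios carry no intensity by which dim probes could be set aside.

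RNA came from the striatum, the part of the basal ganglia that receives cortical input. The study used 4 adult male Wistar rats. A gamma knife, which converges gamma rays from outside the head, gave 1 striatum of the irradiated rats 60 Gy at its central maximum over 30 min through a 4 mm collimator, under pentobarbital, and tissue was taken 16 h afterwards. Irradiated left striatum was hybridised against left striatum of control rats on 2 two-colour arrays, and un-irradiated right striatum, also from irradiated rats, against right striatum of controls on 2 more. The experimental RNA carried Cy5 on array 1 of a side and Cy3 on array 2, and by the labels both arrays hold the same pair of RNAs. Each side is therefore 1 replicate: no difference was tested, there is no p-value or standard deviation, and nothing here measures variation between animals. The labels do not say whether RNA of several rats was pooled, or whether control rats were anaesthetised and framed too.

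All values below are log2 ratios, experimental to control, averaged over both arrays of a side. The figure after ± is how far each array lay from that average, which is technical and includes the dye effect. These directions assume that the deposited ratios are red to green, and would all turn if they were green to red. As deposited, before array 2 was turned, the arrays of a side had a correlation of 0.264 (left) and 0.243 (right) over 23535 features with 1 gene, so that after turning they oppose each other over these features as a whole. A gene was said to pass when both arrays put it beyond 1.5-fold, 0.585 in log2, in 1 direction. A gene also passed in left minus right when this difference did so in both dye orientations.

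Carriers set what neurons and glia take up from blood and from each other. Slc1 and Slc6 carriers clear glutamate, GABA, glycine and monoamines after release, Slc2 and Slc16 carriers bring in glucose and lactate, and Slc7 and Slc38 carriers exchange amino acids, among them the glutamine that feeds transmitter synthesis. Slc4, Slc9 and Slc12 carriers set cell pH and chloride, on which the sign of GABA signalling depends. Some carriers mark a cell type in brain, such as Slc2a5 in microglia and, in mouse, Slc6a13 and Slc6a20a in fibroblasts of the meninges.

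Upstream sequences of 4 carriers are shown because these genes carry the main differences described below: Slc9a2 on the right, Slc6a20a and Slc7a11 between the sides and Slc2a5 on the left. Each is the 250 bases before the gene's start, 5′ to 3′ on the gene's strand, from RefSeq on GRCr8. They lie at chr9:50427362-50427611 (plus strand, the first of 2 listed starts), chr8:132199901-132200150 (minus), chr2:136668265-136668514 (minus) and chr5:165865929-165866178 (plus), in the order given. Capitals mark matches, on either strand, to any of 6 motifs. These were the GC box (GGGCGG), the TATA box (TATAAA), the CCAAT box (spelled as its name), the core of the antioxidant response element (TGANNNNGC), the element of ATF4 with C/EBP factors (TGATGNAA) and an ETS-type element (GAGGAA). Overlapping matches run together.
Slc9a2: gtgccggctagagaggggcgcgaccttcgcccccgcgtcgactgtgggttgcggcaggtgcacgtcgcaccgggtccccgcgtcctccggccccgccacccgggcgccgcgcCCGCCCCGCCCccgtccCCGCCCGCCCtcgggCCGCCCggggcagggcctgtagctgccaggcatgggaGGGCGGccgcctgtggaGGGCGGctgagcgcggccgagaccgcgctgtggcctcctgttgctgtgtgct
Slc6a20a: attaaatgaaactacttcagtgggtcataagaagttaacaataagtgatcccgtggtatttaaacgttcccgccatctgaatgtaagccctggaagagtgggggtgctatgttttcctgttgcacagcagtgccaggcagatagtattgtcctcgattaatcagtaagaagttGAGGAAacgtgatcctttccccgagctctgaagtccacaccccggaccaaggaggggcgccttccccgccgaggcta
Slc7a11: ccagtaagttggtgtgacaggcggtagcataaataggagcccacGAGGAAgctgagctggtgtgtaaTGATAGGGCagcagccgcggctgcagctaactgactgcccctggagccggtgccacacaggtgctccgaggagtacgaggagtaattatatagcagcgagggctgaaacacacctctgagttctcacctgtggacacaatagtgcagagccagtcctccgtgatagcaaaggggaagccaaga
Slc2a5: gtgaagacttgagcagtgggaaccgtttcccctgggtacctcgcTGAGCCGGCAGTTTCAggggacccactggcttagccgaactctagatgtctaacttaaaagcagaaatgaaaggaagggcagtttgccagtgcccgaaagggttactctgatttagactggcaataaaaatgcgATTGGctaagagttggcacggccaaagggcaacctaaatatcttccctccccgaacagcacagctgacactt

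The Slc9a2 sequence was 79.6% G and C and held 7 GC boxes. Slc7a11 held 1 antioxidant response core and 1 ETS-type element, Slc6a20a held 1 ETS-type element, and Slc2a5 held 1 CCAAT box and 2 overlapping antioxidant response cores. The ATF4 element was in none of the 4 windows. A GC box was in 30.5% of all 33469 promoters listed, and in 26 of the 65 carrier promoters (40%). The carrier promoters are the first listed start of each gene, while the 33469 can hold several starts of 1 gene. Their median G and C was 57.2%, beside 51.2% over all promoters. The antioxidant response core was in 34.7% and 30.8%, the ETS-type element in 23.3% and 30.8%, the CCAAT box in 34.0% and 35.4%, the TATA box in 12.9% and 7.69% and the ATF4 element in 3.40% and 6.15%. A match describes letters and is not a binding site.

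As a class the carriers lay close to all genes on both sides. Their median was -0.0077 on the left and -0.0093 on the right, beside 0.0010 and -0.010 over all genes. The median size of a value, whatever its direction, was 0.14 and 0.17, beside 0.15 and 0.16. Both arrays gave 1 sign for 48.9% of carriers on the left and 43.2% on the right, beside 46.0% and 42.9% of all genes. On the left 3 of 88 carriers passed (3.41%, beside 2.21% of all genes), 2 of them higher (1.18% of all genes were) and 1 lower (1.03%). On the right 4 passed (4.55%, beside 3.17%), all 4 higher (1.71%) and 0 lower (1.46%). Counted by probe, 4 of 122 passed on the left and 5 on the right, beside 2.65% and 3.79% of probes with 1 gene. These shares are near the background, so what follows describes single carriers and not a shift of the class.

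**Figure D1:**
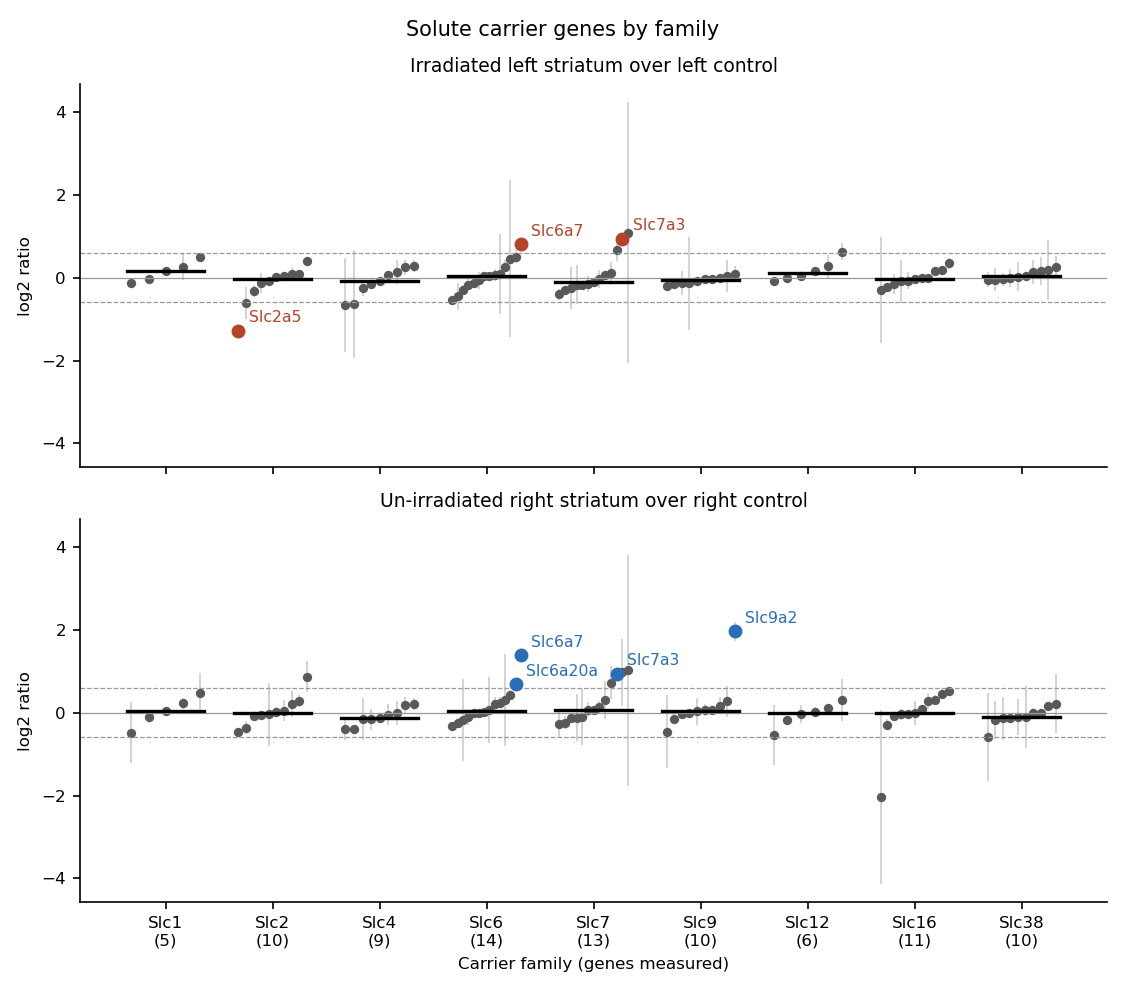
Each point is 1 carrier gene, placed by family (number of genes in brackets), with its mean log2 ratio over the 2 arrays of a side on the y axis; grey bars reach to both arrays, black lines are family medians and dashed lines are 1.5-fold. Named points passed: Slc2a5, Slc6a7 and Slc7a3 on the left and Slc9a2, Slc6a7, Slc7a3 and Slc6a20a on the right, while all family medians lie between -0.13 and 0.17.

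In the irradiated left striatum 1 carrier passed downward, Slc2a5 (Entrez 65197), a sugar transporter that prefers fructose and is known in brain from microglia. Its left arrays read -1.29 and -1.27, a mean of -1.28 ± 0.0083 or 2.43-fold lower, and it was the lowest carrier on this side. Its right arrays read -0.50 and -0.43 (-0.47 ± 0.037), below control on both but short of 1.5-fold. All 4 arrays thus put Slc2a5 below control, with both left arrays below both right ones. Left minus right, within each dye orientation, was -0.78 and -0.84 and passed. Slc2a5 was read by 1 probe.

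Microglial markers also had means below control, all 7 on both sides. Of 7 measured markers 3 passed downward on the left (P2ry12, C1qa and Ctss) and 0 upward, with a median of -0.51 and a range from -2.67 for P2ry12, the ADP receptor of resting microglia, to -0.18 for the fractalkine receptor Cx3cr1. On the right P2ry12 passed downward at -1.05 ± 0.084, the other 6 did not pass, and the median was -0.35. Over all genes 1.03% passed downward on the left and 1.46% on the right. The marker lists here and below were chosen with earlier results of these data known. In whole tissue, fewer cells of a type and less RNA per cell cannot be told apart. The part of microglia in the Slc2a5 value was not tested.

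Both Slc6a7 and Slc7a3 passed upward on the 2 sides, as did 0.215% of all genes. Slc6a7 (Entrez 117100) is the high-affinity proline transporter, found at a subset of glutamatergic terminals. It read 0.95 and 0.66 on the left (0.80 ± 0.15, 1.74-fold) and 1.33 and 1.44 on the right (1.38 ± 0.055, 2.61-fold). Both right arrays lay above both left arrays, but left minus right was -0.38 and -0.78 and did not pass. Slc7a3 (Entrez 29485), a cationic amino acid transporter of neurons that carries arginine and lysine, read 0.86 and 1.02 on the left (0.94 ± 0.083, 1.92-fold) and 0.95 and 0.92 on the right (0.94 ± 0.015). The sides overlapped, with left minus right at 0.0018 ± 0.098. Each of these genes was read by 1 probe.

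Over all genes 1.71% passed upward and 1.46% downward on the right, and 1.18% and 1.03% on the left. Of 9 markers of cortical excitatory neurons, 4 passed upward on the right (Nrn1, Neurod2, Neurod1 and the vesicular glutamate transporter Slc17a7, median of the list 0.71). On the left 0 of 9 passed upward and Emx2 passed downward (median -0.061). Of 10 markers of striatal projection neurons, 6 passed downward on the right (Drd1, Adora2a, Pdyn, Rgs9, Foxp1 and Gpr6, median -0.75) and Rgs9 on the left (median -0.27). The part of these cells in the Slc6a7 and Slc7a3 values was not tested.

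In the un-irradiated right striatum Slc9a2 (Entrez 24783) was the highest carrier. It is a sodium-proton exchanger of the plasma membrane, best known from epithelia. Its right arrays read 2.20 and 1.73 (1.96 ± 0.23, 3.90-fold) and its left arrays -0.17 and -0.0036 (-0.085 ± 0.081). The right arrays stood apart from the left ones, which were at or just under control. Left minus right was -2.36 and -1.74, a 4.14-fold difference, and it was the 1 carrier to pass there at 2-fold as well. A single probe reads this gene.

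Kcnj13, a potassium channel of choroid plexus epithelium, had a left mean of 0.11 ± 0.15. Its right mean was 2.13 ± 0.40, on a side where 1.71% of all genes passed upward. It was the 1 of 10 choroid plexus markers that passed on either side, and the list had medians of -0.014 and 0.048, with transthyretin (Ttr), its most typical gene, at 0.049 ± 0.043 and 0.67 ± 0.30. The part of that tissue in the Slc9a2 value was not tested.

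The fourth carrier higher on the right was Slc6a20a (Entrez 113918), a transporter of proline and other imino acids. It read 0.73 and 0.65 on the right (0.69 ± 0.044, 1.61-fold) and -0.13 and -0.77 on the left (-0.45 ± 0.32), with no overlap of the sides. Its 2 probes had means of 0.50 and 0.88 on the right and -0.35 and -0.54 on the left. With the first of them alone, the probe of the RefSeq mRNA, Slc6a20a no longer passed on the right.

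**Figure D2:**
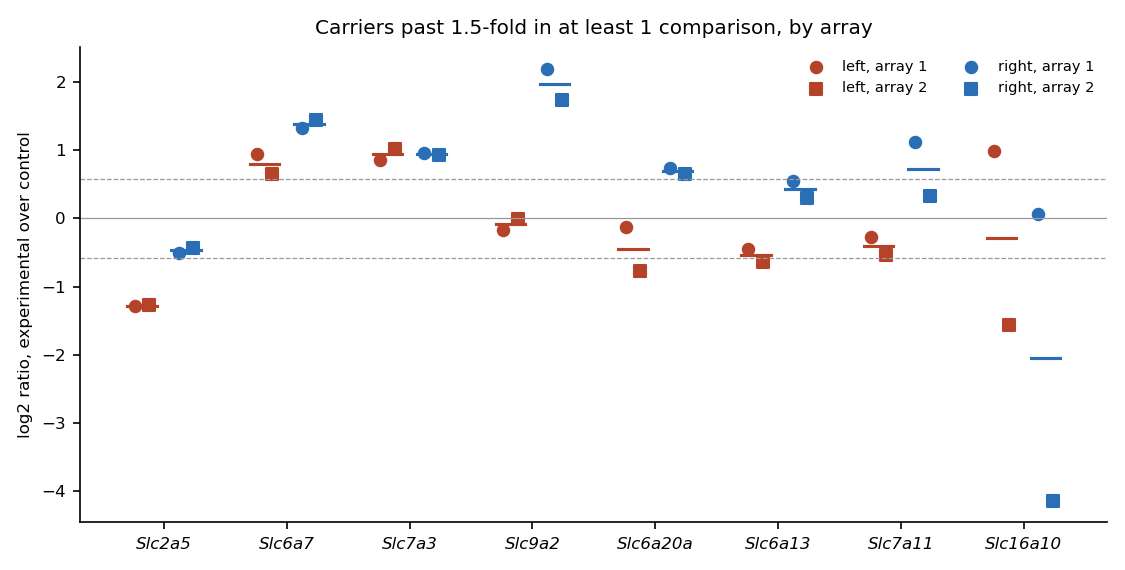
The 8 carriers that passed in at least 1 comparison, with the log2 ratio of each array on the y axis (circles array 1, squares array 2, red left, blue right, short lines the mean of a side, dashed lines 1.5-fold). Slc7a3 lies between 0.86 and 1.02 on all 4 arrays, Slc9a2 is high on the right arrays, and the arrays of Slc16a10 disagree by more than 2 log2 units on both sides.

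Set side against side, 6 of 88 carriers passed in left minus right (6.82%, beside 4.86% of all genes), 5 of them lower on the left (2.26% of all genes were) and 1 higher (2.6%). By probe 10 of 122 passed (8.20%, beside 5.71%). The lower ones were Slc2a5, Slc9a2, Slc6a20a, Slc6a13 and Slc7a11. For the last 4 both left arrays were below control and both right arrays above it. Passing with opposite signs on the 2 sides, in either direction, held for 4.55% of carriers and 1.48% of all genes.

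Slc6a13 (Entrez 171163), a GABA and taurine transporter, read -0.44 and -0.63 on the left (-0.54 ± 0.096) and 0.55 and 0.30 on the right (0.42 ± 0.12). Neither side passed by itself, and left minus right was -0.99 and -0.94, or 1.95-fold. Slc6a13 was read by 1 probe. Slc7a11 (Entrez 310392), the exchanger of cystine for glutamate that supplies glutathione synthesis, read -0.28 and -0.53 on the left (-0.40 ± 0.13) and 1.12 and 0.33 on the right (0.73 ± 0.39). Left minus right was -1.40 and -0.86, with no overlap of the sides. Its 2 probes differed on the right, at 2.07 and 0.12 for the RefSeq mRNA probe and 0.16 and 0.55 for the other. With the probe whose arrays lay closest together, left minus right was -0.71 and no longer passed.

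Meningeal and fibroblast markers were also lower on the left than on the right, all 11 measured ones that are not carriers described here in both dye orientations. Of all 14871 genes, 4027 were lower on the left in both orientations. This list, like the other marker lists, was chosen with earlier results of these data known. On the left 3 passed downward (Foxc1, Dcn and Ogn) and 0 upward, with a median of -0.33 and a range from -1.55 for Foxc1 to 0.12 for Aldh1a2. On the right 4 passed upward (Aldh1a2, Fmod, Ogn and Igf2) and 0 downward, with a median of 0.37 and a range from 0.10 for Dcn to 1.33 for Aldh1a2. Left minus right passed downward in 6 of the 11 (median -1.17). Over all genes these shares were 1.03% downward on the left, 1.71% upward on the right and 2.26% downward in left minus right. The matrix proteoglycan Ogn, for one, had a left mean of -0.76 ± 0.17 and a right mean of 1.06 ± 0.20. The part of these cells in the values of Slc6a13, Slc6a20a and Slc7a11 was not tested. Since arrays give ratios to control RNA and no levels, they do not show how much of any marker a striatum held.

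**Figure D3:**
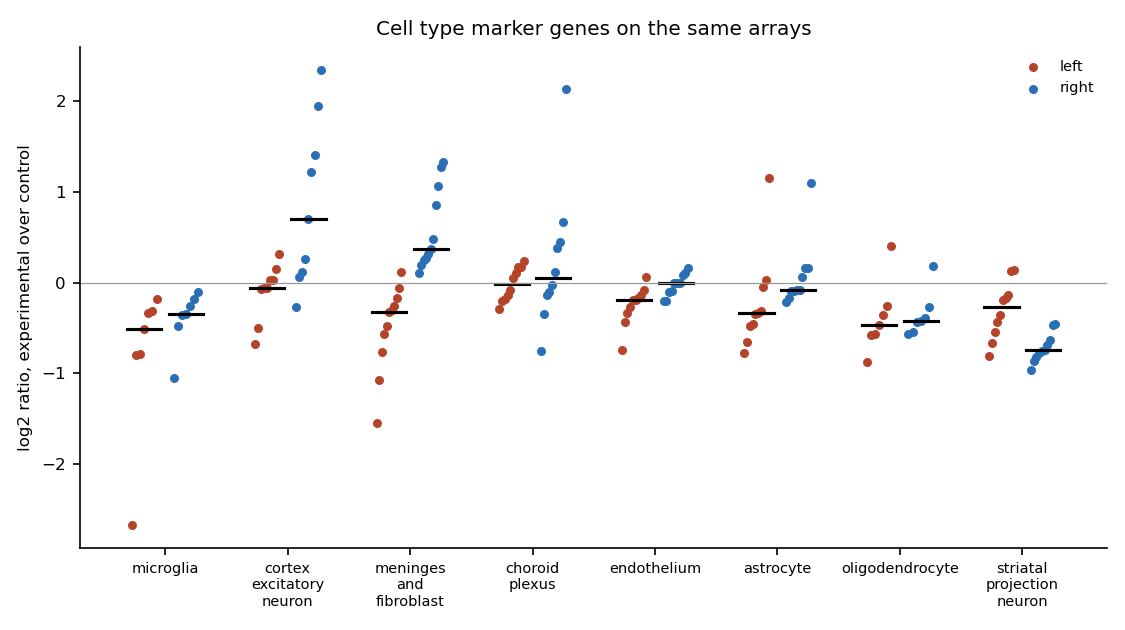
Marker genes of 8 cell types, each point 1 gene with its mean log2 ratio over the 2 arrays of a side on the y axis (red left, blue right, black lines medians). The 7 microglial markers lie below 0 on both sides, the meningeal median is -0.33 on the left and 0.37 on the right, and the projection neuron median is -0.27 and -0.75.

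The 1 carrier higher on the left than on the right was Slc16a10 (Entrez 170566), which carries aromatic amino acids and thyroid hormones. Its arrays read 0.99 and -1.56 on the left and 0.060 and -4.14 on the right, so the dye orientations disagreed on both sides. Left minus right was 0.93 and 2.58 and passed, but with its RefSeq mRNA probe alone it was 0.35 and 2.65 and did not. Slc16a10 is among 7 carriers with an array over 1 away from the mean on at least 1 side (7.95% of carriers, beside 9.56% of all genes). The others were Slc38a6, Slc4a5, Slc4a9, Slc6a18, Slc7a13 and Slc9b1, of which none passed. Slc7a13, a carrier known from kidney, lay farthest out, at 4.24 and -2.07 on the left and 3.82 and -1.78 on the right, with means of 1.09 ± 3.16 and 1.02 ± 2.80.

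**Figure D4:**
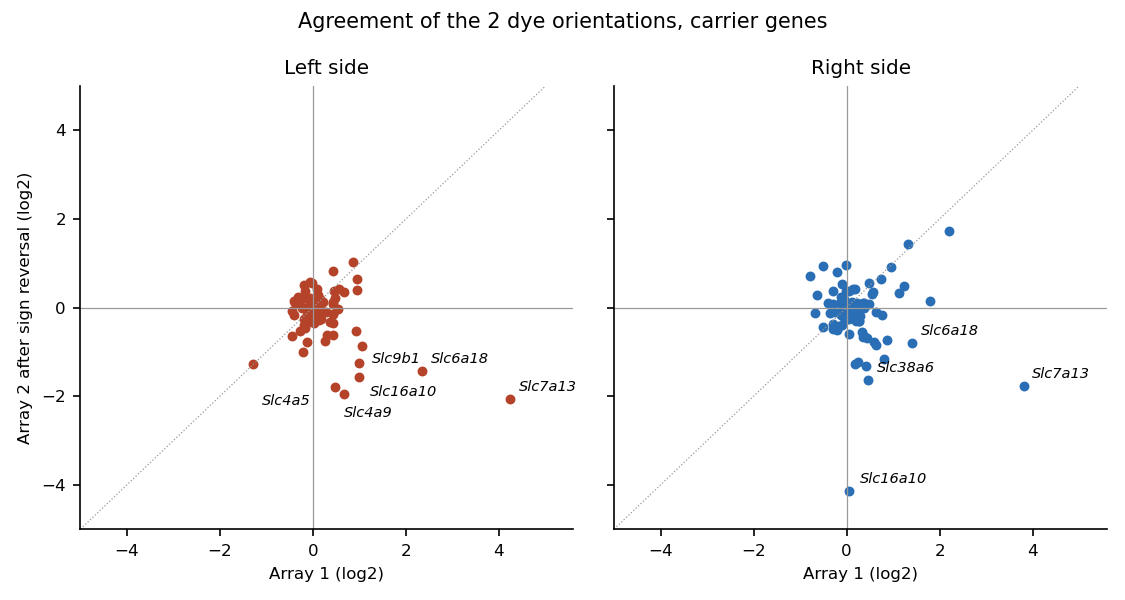
Array 1 (x axis) against sign-reversed array 2 (y axis) for the 88 carriers, as log2 ratios, left side and right side; on the dotted line the dye orientations are equal. Points at the lower right, such as Slc7a13 (4.24 and -2.07 on the left), were brighter in red than in green on both arrays, and labelled genes have an array over 1 away from the mean on that side.

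By family, the glutamate and neutral amino acid carriers of Slc1 (5 genes) had medians of 0.17 and 0.050, left and then right as in all pairs below, and 0 passed. These medians are without Slc1a2 and Slc1a3, which the rule leaves out. Slc1a2 stood at -0.34 ± 0.24 and -0.081 ± 0.075 and Slc1a3 at -0.32 ± 0.085 and -0.078 ± 0.11, below control on both left arrays. Slc1a1, the glutamate transporter of neurons, stood at -0.042 ± 0.0087 and 0.050 ± 0.016. Slc1a6, a glutamate transporter of Purkinje cells, stood at 0.49 ± 0.073 and 0.22 ± 0.12 and was above control on all 4 arrays. The neutral amino acid exchangers Slc1a4 and Slc1a5 stood at 0.26 ± 0.32 and 0.48 ± 0.49, and at 0.17 ± 0.022 and -0.48 ± 0.73. Slc1a7, known from retina, was the lowest of the family on the left at -0.14 ± 0.11.

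The 10 sugar and inositol carriers of Slc2 had medians of -0.027 and -0.013. Slc2a1, the glucose transporter of the blood-brain barrier, read 0.028 and 0.0089 on the left arrays and -0.094 and -0.020 on the right ones. Slc2a3, the glucose transporter of neurons, had means of -0.13 ± 0.23 and -0.083 ± 0.020, and the insulin-responsive Slc2a4 -0.072 ± 0.059 and 0.013 ± 0.13. These 3 glucose transporters lay within 0.13 of control in the mean on both sides. Beside Slc2a1, 0 of 10 endothelial markers passed on either side, with medians of -0.19 and -0.0032. On the left 8 of them were below control on both arrays and 1 above, and on the right 3 below and 1 above. Among all 14871 genes, 3413 were below control on both left arrays and 3211 on both right ones.

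Slc2a13, a proton-coupled carrier of myo-inositol, was the highest of its family at 0.41 ± 0.045 and 0.86 ± 0.37 and did not pass. Its 2 probes disagreed. The first passed upward on both sides, with 0.78 and 0.67 on the left and 2.62 and 1.02 on the right, and the second had means of 0.11 and -0.096. The 5 remaining Slc2 genes had means between -0.61 and 0.096 on the left and between -0.36 and 0.28 on the right.

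The 9 genes of Slc4, the bicarbonate carrier family, had medians of -0.071 and -0.13, and 0 passed. Slc4a4, which the rule leaves out, stood at -0.36 ± 0.19 and -0.17 ± 0.064. The anion exchangers Slc4a2 and Slc4a3 stood at 0.28 ± 0.15 and -0.16 ± 0.51, and at -0.071 ± 0.062 and -0.13 ± 0.050. Of the sodium-coupled carriers found in neurons, Slc4a7 stood at 0.25 ± 0.18 and -0.048 ± 0.25, Slc4a8 at 0.070 ± 0.023 and 0.18 ± 0.20 and Slc4a10 at 0.14 ± 0.29 and 0.21 ± 0.14. Slc4a5, known from choroid plexus, stood at -0.66 ± 1.13 and -0.39 ± 0.092, and Slc4a11 was the lowest of the family on the right at -0.40 ± 0.27. The 2 remaining Slc4 genes had means between -0.64 and -0.26 on the left and between -0.16 and -0.013 on the right.

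Transmitter and amino acid carriers of Slc6 (14 genes) had medians of 0.043 and 0.046. Slc6a11, a GABA transporter of astrocytes, read -0.053 and 0.13 on the left and -0.29 and -0.37 on the right, where both arrays were below control. Of 10 astrocyte markers Gjb6 and Slco1c1 passed downward on the left, Gfap passed upward on both sides, and the medians were -0.34 and -0.080. Over all genes 1.03% passed downward on the left, 1.18% upward there and 1.71% upward on the right. The part of astrocytes in the Slc6a11 value was not tested. The creatine carrier Slc6a8 stood at -0.29 ± 0.12 and -0.24 ± 0.11, below control on all 4 arrays. Oligodendrocyte markers had medians of -0.47 and -0.42, and 1 of 7 (Olig1) passed downward on the left and 0 on the right. Of these 7, 4 were below control on both left arrays and 6 on both right ones, beside 3413 and 3211 of all 14871 genes. Mog was above control on all 4 arrays (0.40 ± 0.062 and 0.19 ± 0.088), and Mag and Ugt8 differed in sign between the left arrays. The part of oligodendrocytes in the Slc6a8 value was not tested.

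The taurine carrier Slc6a6 stood at -0.17 ± 0.13 and -0.020 ± 0.025. Of the glycine carriers, Slc6a9 stood at -0.13 ± 0.061 and 0.027 ± 0.085 and Slc6a5, of glycinergic neurons, at 0.51 ± 0.15 and 0.065 ± 0.81. The serotonin carrier Slc6a4 stood at -0.067 ± 0.21 and -0.10 ± 0.19 and the noradrenaline carrier Slc6a2 at 0.059 ± 0.14 and -0.00065 ± 0.097, each within its own array distance of control. The 4 remaining Slc6 genes had means between 0.047 and 0.46 on the left and between -0.18 and 0.30 on the right.

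Slc7, the cationic amino acid carriers and the light chains of two-part exchangers (13 genes), had medians of -0.12 and 0.068, the lowest of the 9 families on the left and the highest on the right. Neither place held on both arrays: the median was 0.11 on array 1 and -0.26 on array 2 of the left, where Slc2 was the lowest on array 1, and 0.45 and -0.13 on the right, where Slc1 was the highest on array 2. Slc7a5, the large neutral amino acid carrier of the blood-brain barrier, stood at -0.12 ± 0.11 and 0.067 ± 0.18, and its relative Slc7a8 at 0.053 ± 0.053 and 0.068 ± 0.0018. The arginine carrier Slc7a1 stood at -0.29 ± 0.10 and -0.27 ± 0.33, with left means of -0.51 and -0.076 from its 2 probes. Slc7a10, a small neutral amino acid exchanger that carries D-serine, read -0.14 and -0.19 on the left and -0.13 and -0.13 on the right, a narrow band below control. For Slc7a2, another cationic amino acid carrier, 1 of 3 probes passed in left minus right (-0.73 and -0.63), and the gene did not. The other 2 probes had means of 0.36 and 0.13 there. The 5 remaining Slc7 genes had means between -0.24 and 0.67 on the left and between -0.25 and 0.97 on the right.

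The 10 genes of Slc9, the sodium-proton exchanger family, had medians of -0.063 and 0.046. Apart from Slc9a2 none passed. Their left means ran from -0.21 ± 0.12 for Slc9a9, an exchanger of endosomes, to 0.087 ± 0.19 for Slc9b2, and Slc9b1 was the lowest on the right at -0.45 ± 0.88. Slc9a3, of kidney and gut epithelium, stood at -0.14 ± 0.016 and 0.054 ± 0.15. The 5 remaining Slc9 genes had means between -0.13 and 0.043 on the left and between -0.036 and 0.27 on the right.

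The 6 genes of Slc12, the cation-chloride cotransporter family, had medians of 0.10 and -0.0096, and 0 passed. Slc12a2, which loads cells with chloride, read 0.21 and 0.12 on the left and -0.25 and -0.11 on the right, above control on both left arrays and below it on both right ones. Left minus right was 0.47 and 0.23 and did not pass. Slc12a5, which extrudes chloride from neurons, stood at 0.27 ± 0.29 and 0.30 ± 0.51. Slc12a3, the thiazide-sensitive cotransporter of kidney, was the highest on the left at 0.63 ± 0.20 and the lowest on the right at -0.55 ± 0.72, and Slc12a8 was the lowest on the left at -0.075 ± 0.020.

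The 11 genes of Slc16, the monocarboxylate carrier family, had medians of -0.021 and -0.012. Slc16a7, the high-affinity lactate carrier of neurons, read 0.011 and -0.054 on the left and 0.49 and 0.56 on the right, above control on both right arrays but short of 1.5-fold. Left minus right was -0.48 and -0.61 and did not pass either. Slc16a1, the lactate carrier of endothelium and oligodendrocytes, stood at 0.34 ± 0.13 and -0.012 ± 0.29, the highest of the family on the left, and Slc16a3, of glycolytic cells, at -0.013 ± 0.052 and -0.030 ± 0.046. The 7 remaining Slc16 genes had means between -0.23 and 0.19 on the left and between -0.29 and 0.46 on the right.

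The 10 genes of Slc38, the family of sodium-coupled neutral amino acid carriers, had medians of 0.033 and -0.11, and 0 passed. None had both left arrays on 1 side of control, and 2 had both right arrays so, Slc38a1 below and Slc38a5 above. Slc38a1 and Slc38a2, which bring glutamine into neurons, stood at -0.047 ± 0.19 and -0.14 ± 0.022, and at 0.25 ± 0.28 and -0.11 ± 0.44. Slc38a3, which releases glutamine from astrocytes, stood at -0.0019 ± 0.21 and -0.012 ± 0.13 and Slc38a5 at 0.13 ± 0.29 and 0.16 ± 0.066. On the right Slc38a6 was the lowest at -0.59 ± 1.05 and Slc38a4 the highest at 0.22 ± 0.72. In left minus right 1 of 3 probes of Slc38a2 (1.18 and 1.20) and 1 of 3 of Slc38a6 (1.71 and 3.91) passed upward. The other 2 probes had means of -0.040 and -0.064 for Slc38a2 and of -0.25 and -0.22 for Slc38a6. In both passing probes the arrays of a side differed in sign. That of Slc38a2 read 1.53 and -0.0052 on the left and 0.35 and -1.20 on the right. That of Slc38a6 read 2.54 and -0.94 on the left and 0.84 and -4.84 on the right.

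The highest and the lowest family median lay 0.28 apart on the left (Slc1 and Slc7) and 0.20 apart on the right (Slc7 and Slc4). Slc1 is here without Slc1a2 and Slc1a3, and Slc4 without Slc4a4. Which families stood at the ends changed with the array: they were Slc4 and Slc2 on left array 1 and Slc1 and Slc7 on left array 2, Slc7 and Slc2 on right array 1 and Slc1 and Slc4 on right array 2. The median distance of a carrier's array from its mean was 0.14 and 0.15.

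**Figure D5:**
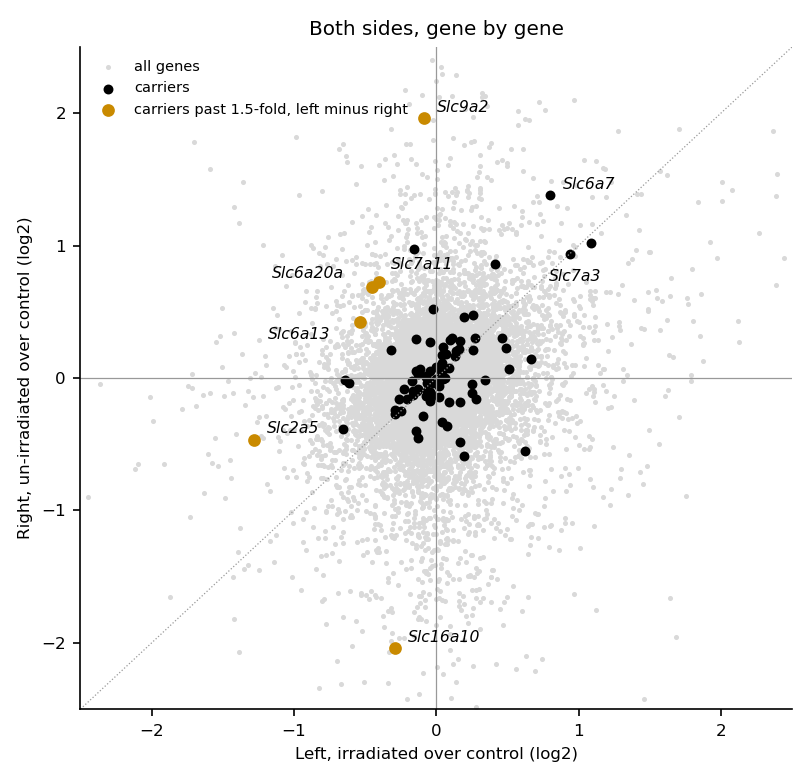
Mean log2 ratio on the left (x axis) against the right (y axis) for each gene; grey points are all genes, black points the 88 carriers and ochre points the carriers past 1.5-fold in left minus right, and genes beyond 2.5 on an axis are not drawn. Slc6a13, Slc6a20a, Slc7a11 and Slc9a2 lie left of and above the origin, and Slc6a7 and Slc7a3 lie to the right of and above it.

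Of 18 measured partners and regulators of the carriers 1 passed on each side, upward, where 1.18% of all genes did so on the left and 1.71% on the right, and the medians were -0.089 and 0.027. On the left it was Slc3a1, the heavy chain of the renal cystine exchanger, at 0.72 ± 0.056, and on the right Cltrn, which in kidney brings Slc6 amino acid carriers to the surface, at 0.95 ± 0.078. Slc3a2, the heavy chain that Slc7a5 and Slc7a11 need, stood at 0.032 ± 0.017 and 0.18 ± 0.029, and basigin (Bsg), the chaperone of Slc16a1, at -0.067 ± 0.18 and 0.11 ± 0.14.

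Among 22 enzymes and vesicular carriers that handle the same substrates the medians were 0.013 and -0.078. Car4, a carbonic anhydrase of the capillary surface, passed downward on the left at -0.93 ± 0.045 and stood at -0.32 ± 0.0077 on the right. Slc17a7, which fills vesicles with glutamate, passed upward on the right at 1.21 ± 0.23 and stood at 0.32 ± 0.028 on the left.

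Of 14 genes of the ATF4 response to amino acid shortage, 9 of them carriers or carrier subunits, Slc7a3 was the 1 that passed on either side. The list had medians of 0.21 and 0.13. The asparagine synthetase Asns stood at 0.33 ± 0.011 and 0.095 ± 0.045, the factor Atf4 at 0.29 ± 0.10 and 0.45 ± 0.15 and Ddit3, a stress-response factor, at 0.31 ± 0.21 and 0.20 ± 0.050. These 3 genes were above control on all 4 arrays and did not pass. In the whole list 6 genes were above control on both left arrays, and 4 were below it on both (Slc7a11, Slc7a1, Slc7a5 and Slc6a9). The other 4 differed in sign between the left arrays. On the right 6 were above control on both arrays, 0 below, and 8 differed between arrays. Among all 14871 genes, 3423 were above control on both left arrays and 3413 below. On the right these numbers were 3175 and 3211. Trib3 and Chac1 differed between arrays on both sides.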

How the data were processed

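Ratios from 4 two-colour arrays were used, 2 with swapped dyes for each side of the brain. The authors' deposited values were made with Agilent Feature Extraction 8.1, per the submitters' processing notes, without further settings in the sources used here. The authors' deposited values were taken to be log10 ratios, red to green, as Feature Extraction writes them, and converted here to log2. The base, the direction and any centring are unstated. Deposited medians were 0.00418, 0.00444, 0.00832 and 0.0111. Of 20045 features with no gene, 726 lay below -1 on all 4 arrays as deposited and 0 above 1, and none past 1 changed sign between the arrays of a side. A dye-bound signal keeps its sign across a swap in values not yet turned, so array 2 of each side was sign-reversed. As deposited the arrays of a side correlated at 0.264 (left) and 0.243 (right) over features with 1 gene, and at 0.743 and 0.666 over all features, so turned arrays oppose each other as a whole. The features bear on the turn alone: that ratios are red to green is an assumption, and every direction rests on it.

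Genes came from GEO's platform annotation, whose symbols were brought up to date through Entrez identifiers in the GRCr8 RefSeq table: 23535 features had 1 gene, 48 several (left unnamed) and 20045 none. All 88 carriers matched that table, and 65 had a promoter in RefSeq's. Slc4a1ap and Slc7a6os, which begin like carriers but name other proteins, were left out. A gene's value is the mean over its probes, 1 for 61 carriers and 2 or 3 for 27. The members and lists were chosen with earlier results of these data known. Named were carriers that passed, a list of well-studied ones (some of which are not reported here), the highest and lowest of each family, passing probes of other carriers and passing genes of the other lists. Carriers with a large dye effect, and Ttr, Slc3a2, Bsg, Asns, Atf4, Ddit3 and Cx3cr1, were picked after their values were seen. Alternatives were the probes used and how they were combined, centring, single arrays, the sign of array 2, the log base, the threshold, the unit counted and the symbols. With so few arrays precision is low. Python 3.11.15 and pandas 2.3.3 were used. The calling procedure was also run on simulated data. Their dye effect and noise were set and not taken from these arrays, so that run does not measure how accurate the calls are here.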

Additional observations from a re-analysis of the deposited data

Results flagged for a closer look

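In 4 carriers both left arrays were below control and both right arrays above it, while left minus right was past 1.5-fold: Slc9a2 (-2.05), Slc6a20a (-1.14), Slc7a11 (-1.13) and Slc6a13 (-0.96). The difference between the sides was not tested, since each side is 1 replicate. For Slc9a2 the second left array lay at -0.0036, so its sign on the left rests on little.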

How the results depend on the processing

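Using RefSeq mRNA probes only, the median over probes, the closest probe, other centring or the annotation's own symbols kept each count of passing carriers within 1.5 times, as did adding Slc4a1ap and Slc7a6os or leaving out the 7 carriers with a large dye effect, both chosen after seeing the data. With 1 array in place of both, passing carriers numbered 12 on the left, 17 on the right and 15 in left minus right on array 1, and 18 on the left, 23 on the right and 20 in left minus right on array 2. A 2-fold threshold left 1 on the left, 2 on the right and 1 in left minus right, and values read as log2 from the start left 0 in each. Counted by probe, 10 passed in left minus right. With array 2 not turned the counts were 6 on the left and 2 in left minus right. None of the values that passed with the turn passed then, since 1 sign on both turned arrays means opposite signs without it. Of those values 5 also reversed in the mean: Slc7a3 on the left (-0.083), Slc6a7 on the right (-0.055) and left minus right for Slc2a5 (0.029), Slc6a20a (0.28) and Slc16a10 (-0.82). The carrier median moved on the left to -0.052 on array 2 alone and 0.050 with array 2 not turned, and on the right to 0.11 on array 1 alone and 0.089 with array 2 not turned. The gap between family medians on the left became 0.38 with RefSeq mRNA probes, 0.53 and 0.45 on arrays 1 and 2 alone, 0.19 with array 2 not turned (Slc38 and Slc12 at the ends), 0.086 read as log2 and 0.24 by probe (Slc12 and Slc7), and the closest probe put Slc1 and Slc9 there. On the right it became 0.52 on array 1 alone and 0.37 with array 2 not turned (Slc7 and Slc12), while the lowest family was Slc38 with RefSeq mRNA probes and Slc2 with the closest probe or by probe. The cause was not tested for any of these. No paired analysis was possible because each side holds 1 replicate. Spot brightness was not used here, so dim probes were not told from bright ones.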
